A study of Saccharomyces cerevisiae with 279 samples.

Results

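Severe heat shock of budding yeast was examined by comparing the sedimentation of RNA in cells shocked at 46°C with that in cells kept at 30°C. The libraries were chosen by their labels as the Sed-seq libraries of the heat experiment at these temperatures, with no other treatment and no spike-in, and they are 12 of the 279 samples of the series. All groups were Saccharomyces cerevisiae strain BY4741, a laboratory haploid of mating type a, grown to early exponential phase at 30°C in a defined glucose medium. Pelleted cells were held for 10 min in a water bath at 46°C or kept at 30°C in an incubator. Each temperature had 2 lysates labelled as biological replicates, and the RNA of every lysate was sequenced as Total, supernatant and pellet. Controls and shocked cells carried the same strain markers and differed in the labels by temperature alone. The 2 lysates of the same experiment at 42°C entered the fits only to estimate the spread between replicates.

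In Sed-seq a cell lysate is centrifuged and RNA is sequenced from the lysate and from both fractions, so that the share of each transcript in particles large enough to pellet can be estimated. Here the lysate contained EDTA, which takes ribosomes apart, and was spun at 20000 g, so that pelleting does not report polysomes. Heat shock stops most translation in yeast and gathers messenger ribonucleoproteins into condensates and stress granules. At the same time the transcription factor Hsf1 induces chaperone genes, and Msn2 and Msn4 induce a broader set of stress genes.

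The value deposited for each lysate, pSup, is the fraction of a transcript found in the supernatant, from 0 for all in the pellet to 1 for all in the supernatant. Total libraries held between 16793429 and 17286717 estimated counts, supernatant libraries between 14802574 and 17159168 and pellet libraries between 18163066 and 19272309. Nuclear mRNAs took between 73.8% and 87.7% of these counts. Of 5906 annotated nuclear mRNAs, 4989 had a transcript length in the deposited annotation and reached 20 estimated counts, supernatant plus pellet, in each of the 6 lysates, and their sedimentation is described. The a-cell genes STE2, STE6 and BAR1 were expressed in all Total libraries, the deleted markers LEU2, URA3 and MET17 were listed at 0 counts, and the alpha-cell gene STE3 had between 26 and 34 counts. HIS3, whose allele in BY4741 is a partial deletion, had between 449 and 498 counts. The pheromone genes MFA1 and MFA2, which define a cells, were listed at 0 counts in every Total library, and whether the files could hold reads from such short mRNAs was not tested.

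Nearly all mRNA moved from the supernatant to the pellet at 46°C. Median pSup over the 4989 mRNAs was 0.886 and 0.883 in the 30°C lysates and 0.201 and 0.217 in the 46°C lysates, a difference of −0.676. This difference is far larger than the SD between replicates, which was 0.00159 at 30°C and 0.0114 at 46°C (n = 2 each). With 2 lysates against 2, the exact 2-sided permutation test gave p = 0.333, the smallest value that it can reach. A pSup above 0.5 was measured for 4946 and 4979 mRNAs in the 30°C lysates, and for 48 and 49 mRNAs in the 46°C lysates.

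The fall reached every part of the distribution. Between the 5th and the 95th percentile, pSup at 30°C ran from 0.650 to 0.962 in replicate 1 and from 0.699 to 0.951 in replicate 2. At 46°C the same range was 0.0937 to 0.381 in replicate 1 and 0.111 to 0.395 in replicate 2. Log-odds of pSup fell in 4988 of 4989 mRNAs (100% of those tested, adjusted p under 0.05, limma with Benjamini-Hochberg adjustment over 6 lysates), with a median of −3.31 in natural-log units. The middle of the changes, from the 5th to the 95th percentile, spanned −3.98 to −2.65. No mRNA rose, and the count was also 0 at an unadjusted p under 0.05. The mRNA that did not pass was YRF1-6, a subtelomeric helicase gene of a multicopy family whose reads are shared between copies. Its pSup went from 0.995 and 0.199 at 30°C to 0.980 and 0.0192 at 46°C, so its replicates differed by more than the temperatures.

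Long mRNAs had the lowest pSup at both temperatures, while short mRNAs fell further in log-odds. When mRNAs were divided by length into 5 groups of equal size, median pSup of the shortest, 321 to 902 nt long, went from 0.939 and 0.937 at 30°C to 0.280 and 0.294 at 46°C. In the longest group, 2448 to 14904 nt long, the 30°C medians were 0.736 and 0.762 and the 46°C medians 0.123 and 0.144. The median change in log-odds went stepwise from −3.62 in the shortest to −2.97 in the longest group. Because length orders the values at both temperatures, each mRNA was also compared with mRNAs of similar length in the same lysate.

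The relative change used below is the change in natural-log odds of pSup, 46°C minus 30°C, after the running mean of mRNAs of similar length in each lysate was subtracted. A positive value means that an mRNA stayed in the supernatant more than its length peers did as the cells were heated. Of 4989 mRNAs, 318 were called higher (6.37%) and 305 lower (6.11%) at an adjusted p under 0.05 (limma, 6 lysates, Benjamini-Hochberg adjustment). Called changes ran from 0.27 to 1.91 upward, with a median of 0.49, and from −0.29 to −1.48 downward, with a median of −0.52. These calls rest on the spread estimated with the 42°C lysates. With the 30°C and 46°C lysates alone, 1 mRNA was called in each direction, and without either 46°C lysate 1 was called higher and at most 2 lower. Without 30°C replicate 1 the counts were 537 higher and 488 lower, and without 30°C replicate 2 they were 829 and 859.

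Part of the called mRNAs crossed from one side of their length peers to the other. Of the 318 called higher, 231 lay below mRNAs of similar length in both 30°C lysates and 234 lay above them in both 46°C lysates, 147 of them doing both. Of the 305 called lower, 243 lay above their length peers in both 30°C lysates and 209 lay below them in both 46°C lysates, and 147 did both. These positions describe mRNAs chosen for this change and are not a test. Total abundance did not pass the test of change described further on for 310 of the 318 and 304 of the 305. Few mRNAs of any kind passed that test, as 0.404% of 5450 rose and 0.0367% fell. Across 4989 transcripts, Spearman's rho between the relative changes of the replicate pairs was 0.533, a description in which transcripts are not independent replicates.

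HAC1 had the largest positive relative change of all 4989 mRNAs. HAC1 encodes the transcription factor of the unfolded protein response, and its mRNA is kept from translation until a cytoplasmic splicing step removes an intron. The gene (YFL031W, chromosome VI, 75179 to 76147, R64 build) has a deposited transcript length of 1197 nt. Its pSup was 0.682 in both 30°C lysates, where mRNAs of similar length had 0.911 and 0.906. At 46°C it was 0.328 and 0.340, where mRNAs of similar length had 0.247 and 0.266. HAC1 thus went from well below its length peers to above them, although most of the mRNA was in the pellet at 46°C. The relative change was 1.96 in replicate 1 and 1.86 in replicate 2, with a fitted value of 1.91 ± 0.08 (SE, adjusted p = 0.00048, limma, n = 2 lysates per temperature). HAC1 abundance in Total RNA changed by −0.06 on the log2 scale (adjusted p = 0.815, edgeR's quasi-likelihood test). In separate Polysome-seq lysates of the same temperatures, the ratio of HAC1 in polysomes to Total rose by 4.17 on the log2 scale relative to other mRNAs (adjusted p = 4.3e-08, edgeR interaction), rank 8 of 5724 transcripts. There 31.1% of transcripts rose and 23.1% fell. In unstressed cells the paper found a translationally repressed, condensed reporter mRNA in heavy polysome fractions. The polysome ratio may therefore include condensed mRNA beside mRNA bound to ribosomes, which was not tested.

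SSA4, an inducible cytosolic Hsp70 chaperone, reached a high relative change from an ordinary start. The gene (YER103W) lies at 364589 to 366517 on chromosome V. Its pSup was 0.828 and 0.843 at 30°C, close to its length peers at 0.840 and 0.833, and 0.369 and 0.373 at 46°C, where those peers had 0.165 and 0.181. Its relative change was 1.04 ± 0.09 (SE, adjusted p = 0.016, limma). TFS1, which encodes an inhibitor of carboxypeptidase Y, and SOL4, a 6-phosphogluconolactonase, likewise stood above their peers at 46°C, with pSup of 0.432 and 0.448 for TFS1 and 0.349 and 0.377 for SOL4. SRB2, a subunit of the Mediator complex, had pSup of 0.461 and 0.367 at 46°C, so its replicates differed by more than those of SSA4. AIM3, which encodes a protein of cortical actin patches, and MGA1, which encodes a transcription factor related to the heat shock factor, went from below to above their peers with relative changes of 0.93 and 0.95.

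The other mRNAs among the 12 largest positive relative changes lay below their length peers at both temperatures. SWC7, a subunit of the SWR1 chromatin remodeller, had pSup of 0.557 and 0.577 at 30°C against 0.952 and 0.947 for its length peers. At 46°C it was at 0.0798 and 0.114 against 0.297 and 0.314. PET122, which encodes a translational activator of a mitochondrial mRNA, had 0.646 and 0.679 at 30°C and 0.155 and 0.165 at 46°C. YSR3, a sphingolipid phosphatase, NGL3, a nuclease related to Ccr4, and RRG8, required for respiratory growth, were likewise below their peers in all 4 lysates. Their relative changes were 1.12, 1.08 and 1.03. In total, 53 of the 318 mRNAs called higher were still below mRNAs of similar length in both 46°C lysates.

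The largest negative relative change by the naming rule belonged to CLG1, which encodes a cyclin-like partner of the kinase Pho85. CLG1 (YGL215W) lies at 87981 to 89339 on chromosome VII. Its pSup was 0.917 and 0.925 at 30°C, above its length peers at 0.839 and 0.834, and 0.0840 and 0.112 at 46°C, below those peers at 0.162 and 0.180. The relative change was −1.50 and −1.46 in the replicate pairs and −1.48 ± 0.10 as fitted (SE, adjusted p = 0.0096, limma). GCN4, the transcription factor of amino acid starvation, is held back from translation by upstream open reading frames. GCN4 had pSup of 0.939 and 0.914 at 30°C and 0.124 and 0.162 at 46°C, with a relative change of −1.02 ± 0.13 (SE, adjusted p = 0.016, limma). GCN4 also had a higher polysome ratio in the Polysome-seq lysates, by 1.21 on the log2 scale (adjusted p = 0.00017, edgeR interaction), whereas CLG1 had a lower one, by −0.64 (adjusted p = 0.0043). HAC1 and GCN4 therefore shared the direction in the polysome ratio and had opposite relative changes of pSup.

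The other mRNAs among the 12 largest negative relative changes encode proteins of several kinds. They include AUS1, a sterol uptake transporter, SMP3, a mannosyltransferase of anchor synthesis, IST2, a tether between endoplasmic reticulum and plasma membrane, ECM33, a cell wall protein, and WSC2, a cell wall sensor. FEX1 and FEX2, near-identical fluoride exporter genes, were called lower at −1.29 and −1.16, but their reads are shared and they cannot be counted as separate evidence. CYT1, the cytochrome c1 subunit of respiratory complex III, had pSup of 0.960 and 0.948 at 30°C and 0.160 and 0.209 at 46°C. SNF11, a chromatin remodelling subunit, and NMD4, a partner of the decay factor Upf1, were at −0.99 each. The replicate pairs were uneven for ECM33 and IST2. ECM33 changed by −1.41 in replicate 1 and −0.64 in replicate 2, and IST2 by −1.48 and −0.78.

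**Figure D1:**
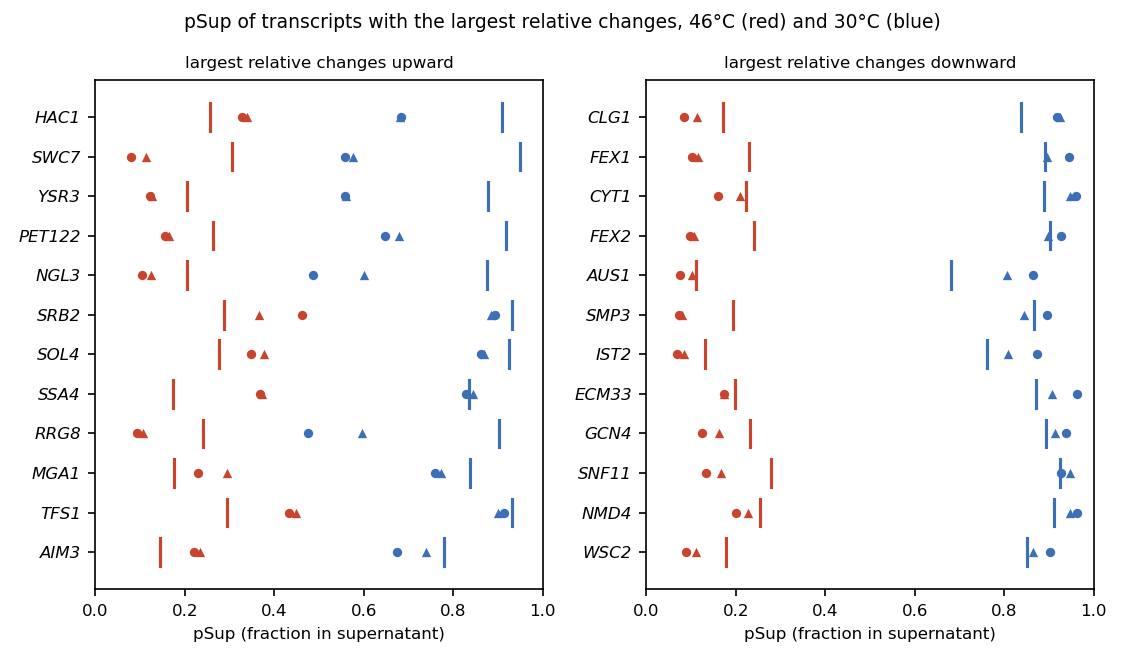
pSup (fraction in supernatant, 0 to 1) of the 12 mRNAs with the largest positive (left) and the 12 with the largest negative (right) relative changes, in 30°C (blue) and 46°C (red) lysates, with circles for replicate 1, triangles for replicate 2 and vertical bars for the mean over replicates of mRNAs of similar length. HAC1 goes from 0.682 in both 30°C lysates, left of its blue bar, to 0.328 and 0.340, right of its red bar, and CLG1 does the reverse, from 0.917 and 0.925 to 0.0840 and 0.112.

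The same contrast was available in other cultures with their own controls, namely lysates that carried fission yeast RNA as a spike-in (2 per temperature) and mock lysates of the cycloheximide experiment (2 per temperature). In the spike-in lysates 19.4% of 5100 mRNAs were called higher and 16.3% lower. Of the 318 mRNAs called higher in the heat experiment, 217 were also called higher there and 0 lower, and 284 were positive in both pairs. Of the 305 called lower, 199 were also called lower and 5 higher, and 253 were negative in both pairs. Over all 4984 mRNAs measured in both, 38.9% were positive in both spike-in pairs and 38.9% negative in both.

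In the mock lysates, where fewer mRNAs were called (4.03% higher and 3.3% lower of 4932), the look-up gave smaller counts in the same directions. There 68 of the 318 were called higher and 64 of 304 lower, with 0 called in the opposite direction in either set. Depth differed between the experiments. Supernatant libraries at 46°C held 1612859 and 2583958 estimated counts in the mock lysates, at least 14802574 in the heat experiment and 30193278 and 29803795 in the spike-in lysates. The mock calls rest on single lysates, since between 0 and 591 mRNAs were called higher and between 0 and 322 lower when 1 of these lysates was left out, with 0 in both directions without 46°C replicate 1. The named mRNAs differed in how far their values carried over. HAC1 had relative changes of 0.90 in the spike-in lysates and 0.97 in the mock lysates, lower than in the heat experiment, and ranked 27 of 5100 and 26 of 4932. SSA4 had 1.54 and 1.65 and had the highest value in both. CLG1 had −1.12 and −1.20, and GCN4 had −0.88 and −1.02. YSR3, NGL3 and MGA1 did not pass the test in either set, with 0.09, 0.18 and 0.06 in the spike-in lysates. ECM33 had −0.36 in the spike-in lysates (adjusted p = 0.014, limma) and 0.19 in the mock lysates (adjusted p = 0.745, limma). Across 4984 mRNAs, Spearman's rho between the relative changes of the heat and spike-in lysates, which share no library, was 0.587, and it was 0.402 across 4880 mRNAs for the mock lysates.

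**Figure D2:**
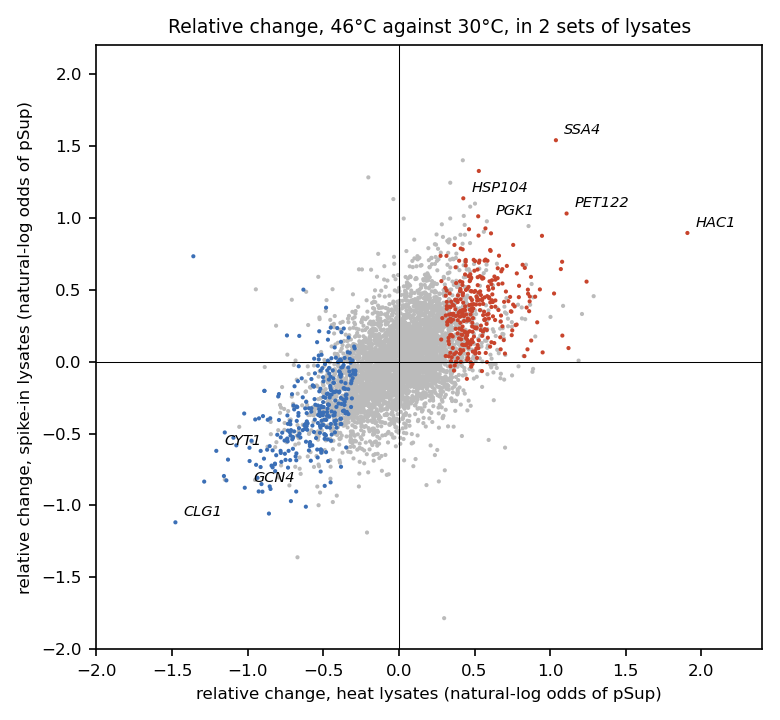
Relative change at 46°C against 30°C (natural-log odds of pSup) in the heat lysates (x axis) and the spike-in lysates (y axis), 1 point for each of 4984 mRNAs, 3 of them outside the axes. mRNAs called higher in the heat lysates are red, those called lower are blue and the rest are grey, and 217 of 318 red and 199 of 305 blue points were also called in the same direction in the spike-in lysates.

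As a description of level, the mRNAs left most in the supernatant at 46°C encode abundant proteins of glycolysis and the ribosome. PGK1, phosphoglycerate kinase, had pSup of 0.672 and 0.651, ADH1, alcohol dehydrogenase, 0.619 and 0.625, and ENO2, enolase, 0.586 and 0.584. The ribosomal genes RPL43B, RPS30B and RPL2B, the small-subunit protein gene ASC1 and the immunophilin gene FPR1 also had means above 0.5 in these lysates. ADH1, ENO2, RPL43B and RPL2B share reads with other genes, so their values are uncertain. ASC1 hosts the small nucleolar RNA SNR24 in an intron. TAR1 (0.935 and 0.920) and YGL088W (0.830 and 0.745) ranked above them, but TAR1 lies antisense within the ribosomal DNA and YGL088W overlaps the small nucleolar RNA gene SNR10 on the same strand, so their reads may belong to other RNAs. At the low end stood FMP27, TCB3, SLN1, CSF1, REA1, TCB2 and NTE1, most of them very long mRNAs, with pSup in the 46°C lysates between 0.0352 and 0.0602, and the subtelomeric or duplicated genes YEL076C, YJL225C and VTH1, whose reads are shared. CSF1 and REA1 have no mRNA of similar length to be compared with, so their relative change is 0 by construction in this experiment.

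Gene lists are described by their counts, with no test, beside the shares over all 4989 mRNAs, of which 6.37% were called higher and 6.11% lower, and 1795 were positive in both pairs and 1678 negative in both. Cytosolic chaperones were the list with the largest share of members called higher. Of 28 members, 9 were called higher and 0 lower, the median relative change was 0.26 against 0.01 over all 4989 mRNAs, and 22 were positive in both pairs. Those called were SSA4, HSP26, HSP42, HSP82, HSP104, STI1, AHA1, FES1 and APJ1, which encode Hsp70, small heat shock proteins, Hsp90, the disaggregase, and co-chaperones. HSP104 had pSup of 0.858 and 0.868 at 30°C and 0.302 and 0.337 at 46°C, against 0.137 and 0.160 for its length peers at 46°C, with a relative change of 0.43 ± 0.08 (SE, adjusted p = 0.028, limma). HSP26 had 0.467 and 0.474 at 46°C with a relative change of 0.53 ± 0.11 (SE, adjusted p = 0.032). In the spike-in lysates 25 of the 28 were called higher and 1 lower, with a median of 0.58, HSP104 being at 1.14 and HSP26 at 1.33. SSB1 and SSB2, which encode ribosome-bound Hsp70 and share reads, had relative changes of 0.00 and −0.14 in the heat experiment and did not pass the test there. The 7 mitochondrial matrix chaperones had a median of 0.13, with HSP60 highest at 0.47 (adjusted p = 0.099) and SSC1 lowest at −0.31, and of the 8 subunits of the cytosolic chaperonin TRiC 1 was called lower, TCP1.

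The mRNAs that the deposited annotation labels as Hsf1 targets overlap this list. Of 46 measured, 11 were called higher and 1 lower, HRK1, which encodes a kinase of ion homeostasis and shares reads. Their median was 0.22. Besides chaperones, those called higher were UBI4, polyubiquitin, and RIE1. Of 191 labelled Msn2/4 targets 13 were called higher and 5 lower, with a median of 0.05, which for the higher calls is near the share of 6.37% over all mRNAs and shows nothing particular to the list. TFS1, EDC2, an activator of decapping, TPS1 and PGM2, of trehalose and glycogen metabolism, were among those called higher, and the malate dehydrogenase genes MDH1 and MDH2 and the eisosome gene PIL1 were among those called lower. Of 27 trehalose and antioxidant genes, 3 were called higher and 0 lower. Among 17 stress transcription factors, HAC1 and CAD1, an AP-1-like factor, were called higher and GCN4 lower.

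Glycolytic mRNAs combined high pSup at 46°C with few calls. The median pSup of 19 members was 0.507 and 0.524 at 46°C, against 0.220 and 0.233 for mRNAs of similar length, but also 0.965 and 0.946 at 30°C. Their median relative change was 0.13 in replicate 1 and 0.41 in replicate 2, and 1 was called higher, GLK1, glucokinase, and 1 lower, PFK1, a phosphofructokinase subunit. PGK1 shows the uneven replicates, with 0.24 in replicate 1 and 0.93 in replicate 2 (fitted 0.58 ± 0.27, SE, adjusted p = 0.192, limma). In the spike-in lysates 17 of the 19 were called higher, with a median of 0.72. Amino acid biosynthesis mRNAs were similar in this respect, with 0 called higher and 3 lower of 59 in the heat experiment, MET6 among them, and 42 higher and 0 lower in the spike-in lysates. MDH2 was called in opposite directions in the 2 sets of lysates, lower in the heat lysates and higher in the spike-in lysates.

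In the heat experiment, cytosolic ribosomal protein mRNAs were called about as often as mRNAs in general. Of 132 cytosolic ribosomal protein mRNAs, 7 were called higher and 7 lower, against 6.37% and 6.11% over all mRNAs, with medians of −0.10 in replicate 1 and 0.22 in replicate 2, so that the replicates differed in sign. RPL15A was highest at 0.65 and RPS30A lowest at −0.80. The other lysates differed from this. In the spike-in lysates 51 of the 132 were called higher and 11 lower, against 19.4% and 16.3% over all mRNAs there. In the mock lysates 26 were called higher and 3 lower, against 4.03% and 3.3%. Initiation factor mRNAs had 2 called higher, TIF4631 (eIF4G) and CDC33 (eIF4E), and 5 lower, DED1, NIP1, TIF35, TIF6 and GCD7, of 27. DED1, an RNA helicase of scanning, was lowest at −0.74 ± 0.14 (SE, adjusted p = 0.027, limma) and had 0.18 in the spike-in lysates. Of 14 elongation and termination factors, SUP35, the release factor eRF3, and CAM1 were called higher and 0 lower. Of 19 aminoacyl-tRNA synthetases GLN4 was called higher and 4 lower, and of 76 ribosome biogenesis mRNAs 1 was called higher and 3 lower. In the spike-in lysates the synthetases instead had 13 called higher and 0 lower. There the 27 initiation factors had 11 higher and 4 lower, and the 76 ribosome biogenesis mRNAs 18 higher and 5 lower. Mitochondrial ribosomal protein mRNAs had 6 called higher and 1 lower of 69, with MRP8 among the former although its product is not an established ribosomal subunit.

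The lists of secretion, respiration, the vacuolar proton pump and histones had calls in the downward direction and 0 in the other. Of 30 secreted and cell wall protein mRNAs, 0 were called higher and 6 lower (ECM33, SUN4, CCW14, SED1, YPS1 and CCW12), and 19 were negative in both pairs. Their median was −0.54 in replicate 1 and −0.10 in replicate 2, and it was positive in the other lysates, at 0.16 in the spike-in lysates, where 13 were called higher and 5 lower, and at 0.29 in the mock lysates. Of 31 respiratory chain and ATP synthase mRNAs 5 were called lower (CYT1, RIP1, ATP1, ATP4 and ATP5), with a median of −0.21, and the spike-in lysates gave 4 higher and 12 lower with a median of −0.15. Of 15 subunits of the vacuolar proton pump 4 were called lower, among them VPH1 at −0.95. Of 8 core histone mRNAs 3 were called lower, with a median of −0.35 against −0.03 in the spike-in lysates. Proteasome subunits had 1 called higher and 5 lower of 32, stress granule and P body proteins 3 and 5 of 26, and ergosterol enzymes 2 and 0 of 23. None of 16 endoplasmic reticulum folding mRNAs was called in the heat lysates (limma, adjusted p under 0.05). In the spike-in lysates 8 of them were called higher and 1 lower, with a median of 0.23. In the mock lysates their median was 0.50, with 0 called.

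**Figure D3:**
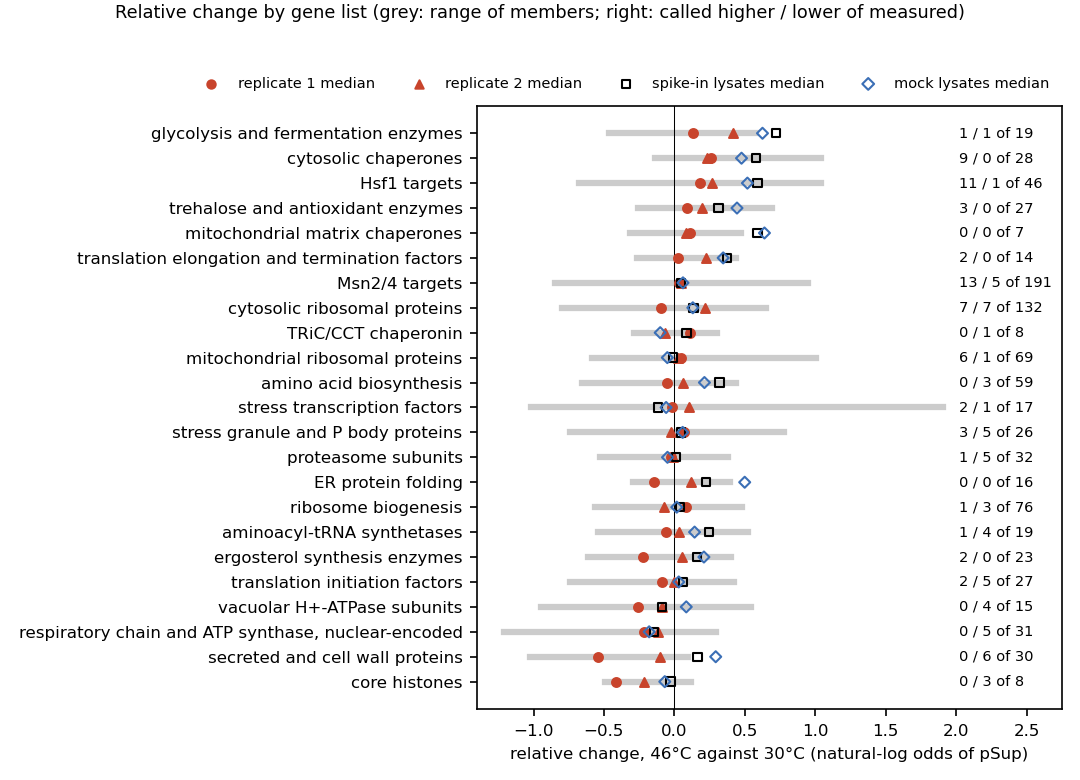
Relative change at 46°C against 30°C (natural-log odds of pSup) for 23 gene lists, with the range of members in grey, the median in each replicate pair in red (circle, replicate 1, triangle, replicate 2), the median in the spike-in lysates as open squares and in the mock lysates as open diamonds, and the counts called higher and lower of those measured at the right. Medians of cytosolic chaperones and Hsf1 targets lie to the right of 0 in all sets, while secreted and cell wall proteins have medians of −0.54 and −0.10 in the heat lysates and 0.16 in the spike-in lysates.

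Total RNA changed little by comparison after 10 min at 46°C. Of 5450 mRNAs tested, 22 rose (0.404%) and 2 fell (0.0367%) at an adjusted p under 0.05 (edgeR's quasi-likelihood test, Benjamini-Hochberg adjustment, 6 Total libraries). Same-numbered Total libraries deviated together weakly. The main fit did not use this, and with the replicate block 29 rose and 4 fell. The count of rises was 10 without 30°C replicate 1 and also without replicate 2, 177 without 46°C replicate 1 and 26 without 46°C replicate 2. In bulk RNA, more copies per cell and more cells with the RNA cannot be told apart.

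Of the 22 mRNAs that rose, 14 are labelled Hsf1 targets and 1 an Msn2/4 target. The labelled mRNAs tested for abundance were 47 Hsf1 targets and 192 Msn2/4 targets, and 0.404% of all mRNAs tested rose. BTN2, which encodes a factor that gathers misfolded proteins, was at 21.2 and 22.8 TPM (a measure of abundance scaled to transcript length and library size) at 30°C and 129.5 and 110.1 TPM at 46°C. SSA4 was at 12.3 and 10.9 TPM at 30°C and 61.2 and 57.4 TPM at 46°C. Both genes had no overlap between temperatures, with log2 changes of 2.47 ± 0.08 (SE, adjusted p = 7.9e-07, edgeR) and 2.38 ± 0.06 (SE, adjusted p = 1.3e-07). HSP42 (log2 change 1.95), the autophagy gene ATG41 (1.30), the membrane protein gene HSP30 (1.23), HSP78, the mitochondrial disaggregase (1.12), the co-chaperone gene APJ1 (0.88), HSP104 (0.85) and CUR1 (0.71) followed among Hsf1 targets. SSA1, a constitutive Hsp70 gene, rose by the smallest amount, 0.21, from 798.9 and 820.1 TPM to 913.2 and 925.0 TPM.

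The risers outside these labels were of other kinds. SRT1, a prenyltransferase gene, rose from 0.693 and 0.267 TPM to 2.18 and 2.44 TPM, few enough counts that its sedimentation was not tested. GAS2, a glucan enzyme of the spore wall, was at 3.76 and 3.12 TPM at 30°C and 7.53 and 6.59 TPM at 46°C. PHR1, the DNA photolyase gene, went from 6.19 and 5.53 TPM to 10.7 and 12.4 TPM. YOR385W, 1 of the 2 that fell, ends 923 nt upstream of PHR1 on the same strand and went from 37.2 and 42.99 TPM to 25.2 and 26.3 TPM. The other was CIP1, a cyclin-dependent kinase inhibitor gene, from 13.4 and 15.1 TPM to 8.43 and 8.74 TPM. Neither fell at the threshold when only the 30°C and 46°C libraries were fitted.

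Of the 20 risers with a relative change in sedimentation, 8 were called higher and 1 lower, 16 were positive in both pairs and the median was 0.33, beside 6.37% called higher, 1795 of 4989 positive in both pairs and a median of 0.01 over all mRNAs. SSA4, GAS2 (0.85) and PHR1 (0.79) had the largest values. A rise in abundance did not always go with a higher relative change in the heat lysates. ATG41, at a log2 rise of 1.30, had −0.04 (adjusted p = 0.858, limma), CUR1 had −0.07, and SER3, a serine synthesis gene that shares reads, was called lower at −0.41. BTN2, with the largest log2 rise, had 0.50 (adjusted p = 0.051). Across 4989 mRNAs, Spearman's rho between abundance change and relative change was 0.094.

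**Figure D4:**
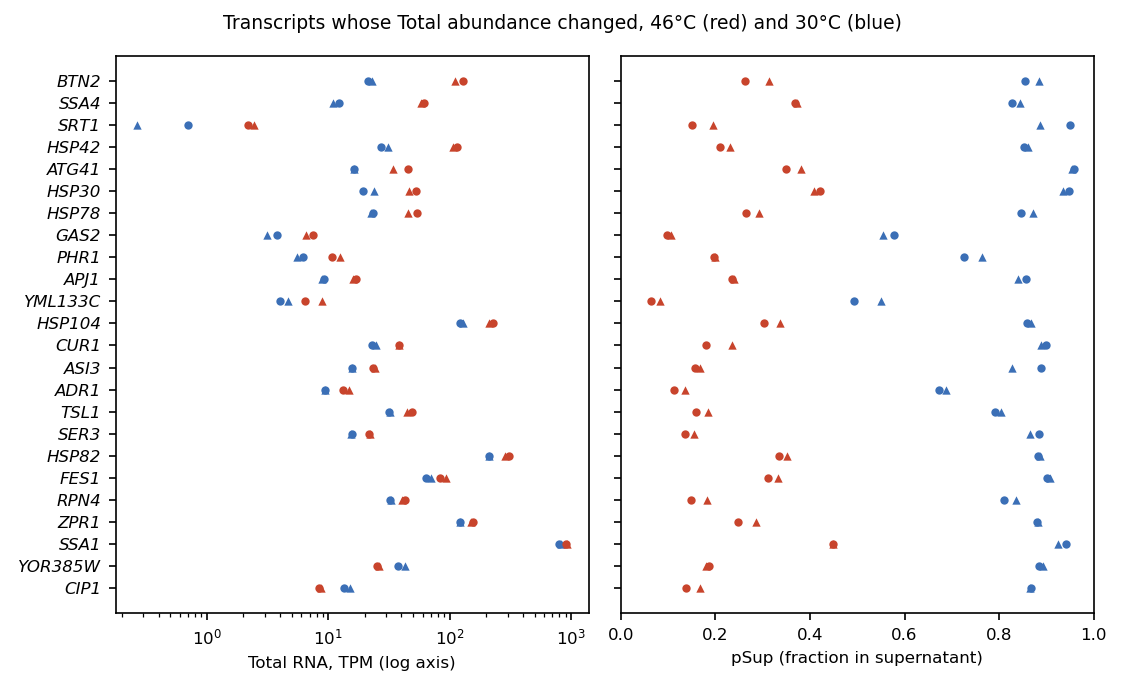
Total abundance in TPM (left, log axis) and pSup (right, 0 to 1) of the 22 mRNAs that rose and the 2 that fell (YOR385W and CIP1, bottom), in 30°C (blue) and 46°C (red) lysates, with circles for replicate 1 and triangles for replicate 2. BTN2 goes from 21.2 and 22.8 to 129.5 and 110.1 TPM, and all 24 mRNAs have lower pSup at 46°C than at 30°C.

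Several noncoding RNAs stayed in the supernatant at 46°C, at levels that few mRNAs reached. Of 5363 nuclear mRNAs with at least 20 counts in these lysates, 40 had pSup above 0.5 in both 46°C lysates and 3 above 0.7. SCR1, the RNA of the signal recognition particle, had 0.935 and 0.905 at 30°C and 0.820 and 0.777 at 46°C. RPR1, of RNase P, was at 0.886 and 0.857 at 46°C and NME1, of RNase MRP, at 0.921 and 0.916. Mature 18S rRNA (RDN18, 2 identical copies in the annotation) had 0.906 and 0.893, although rRNA was depleted before sequencing. These values describe each RNA, and the classes were not tested against mRNAs.

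Small nuclear and nucleolar RNAs differed in how much of them stayed in the supernatant at 46°C. LSR1, the U2 spliceosomal RNA, had 0.818 and 0.750 at 46°C and SNR7-L, U5, 0.710 and 0.636, whereas SNR19, U1, had 0.397 and 0.222, all from at least 0.939 at 30°C. Of 16 measured H/ACA small nucleolar RNAs, which guide pseudouridylation, 15 had pSup above 0.5 in both 46°C lysates, with medians of 0.789 and 0.751. SNR37 changed least of the best-counted, from 0.780 and 0.752 to 0.733 and 0.735. The U3 genes SNR17A and SNR17B, which act in rRNA processing, went from 0.705 and 0.728 to 0.147 and 0.134 and from 0.749 and 0.742 to 0.128 and 0.127. Their reads are shared, so they cannot be counted as separate evidence. SNR63, the one C/D small nucleolar RNA of another kind with enough counts, was at 0.288 in both. Only 19 of 76 annotated small nucleolar RNAs and 0 of 275 tRNAs passed the count minimum.

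The remaining nuclear noncoding RNAs were mostly in the pellet at 46°C. TLC1, the telomerase RNA, had pSup of 0.958 in both 30°C lysates and 0.162 and 0.170 at 46°C. The 13 other RNAs of this class, among them SRG1, IRT1 and ICR1, had medians of 0.826 and 0.835 at 30°C and 0.123 and 0.153 at 46°C.

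Mitochondrially encoded mRNAs pelleted at 46°C more fully than most nuclear mRNAs. The 18 measured had medians of 0.650 and 0.679 at 30°C and 0.0289 and 0.0363 at 46°C, and 15 of them were below the 5th percentile of nuclear mRNAs (0.0923 and 0.110) in both 46°C lysates. Of the 18, 9 share reads, COX1 and COB among them, and of the 9 that do not, 8 were below that percentile. OLI1, which encodes an ATP synthase subunit, went from 0.803 and 0.811 to 0.0265 and 0.0341. COX1, COX3 and COB, of cytochrome oxidase and complex III, kept more, with COB at 0.183 and 0.227. The reads left of the mitochondrial rRNAs did not follow the mRNAs of the same organelle. As rRNA was depleted before sequencing, these values may depend on the depletion, and whether it differed between fractions was not tested. The 15S rRNA was also uneven elsewhere, at 0.773 and 0 in the mock lysates at 46°C. The 21S rRNA had 0.547 and 0.517 at 30°C and 0.655 and 0.535 at 46°C, and the 15S rRNA 0.542 and 0.488 at 30°C and 0.623 and 0.422 at 46°C, so their temperatures overlapped or differed by less than the mRNAs did. Ty retrotransposon RNAs, whose 66 measured copies all share reads, had medians of 0.608 and 0.673 at 30°C and 0.0817 and 0.120 at 46°C.

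**Figure D5:**
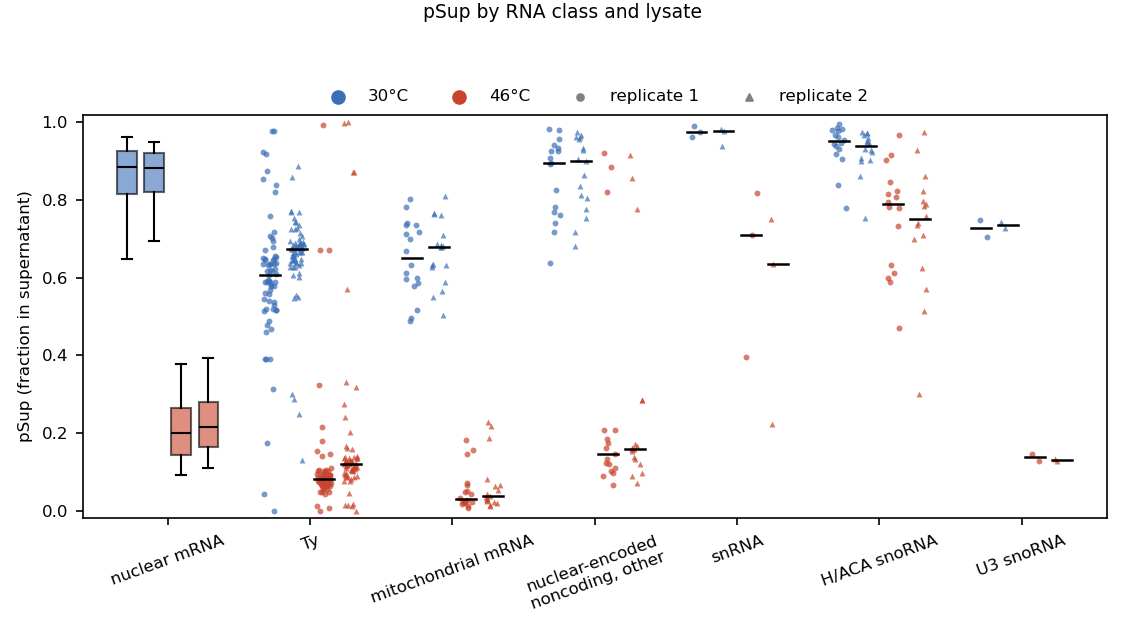
pSup (fraction in supernatant, 0 to 1) by RNA class in each lysate at 30°C (blue) and 46°C (red), with boxes from the 25th to the 75th and whiskers from the 5th to the 95th percentile for nuclear mRNAs, 1 point per RNA elsewhere (circles, replicate 1, triangles, replicate 2) and black bars for medians. H/ACA small nucleolar RNAs have medians of 0.789 and 0.751 at 46°C, while mitochondrial mRNAs have 0.0289 and 0.0363.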

How the data were processed

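Single-end reads of 50 nt without molecular identifiers were made from RNA depleted of ribosomal RNA, and the submitters' processing notes name Trim Galore 0.6.10, STAR 2.7.10b, kallisto 0.48.0 and build R64. The authors deposited estimated counts per transcript and TPM for each library, and pSup, a fraction that the authors computed from supernatant and pellet counts with mixing ratios fitted to the Total library in a Bayesian model. The authors' fold changes and sedimentation scores were not used. Deposited counts in the combined tables equalled those of the single libraries. Deposited pSup equalled the value computed from these counts with the deposited mixing ratios, which is no check of the ratios themselves.

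Estimated counts were rounded for edgeR 4.0.16 (TMM, filterByExpr, quasi-likelihood test), and limma 3.58.1 was applied to log-odds pSup with a trend on counts in R 4.3.3, with 2-sided p-values adjusted by the Benjamini-Hochberg method over all transcripts tested and a threshold of 0.05. Relative change subtracts a running mean along log transcript length, whose window spans 0.02 of the total range. Fits used 6 lysates of the heat experiment (30°C, 42°C and 46°C), 4 spike-in lysates, 8 lysates of the cycloheximide experiment and 6 Polysome-seq lysates. Other steps used Python 3.11.15, pandas 2.3.3 and scipy 1.17.1. The edgeR fit of Total counts and the limma fit of relative change were tested on simulated data with equal noise at all temperatures. The other fits were not simulated.

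Members and gene lists were chosen with earlier results of these data known. By rule, the text names the 12 largest called changes in each direction with the same sign in both pairs and at least 100 counts, the 10 highest and lowest levels at 46°C, the transcripts the study discusses for heat, the extremes of each of 23 lists and the 3 best-counted RNAs of each noncoding class. Other list members and RNAs were named after their values were seen. Transcripts with counts that were not whole (tolerance 0.001) are said to share reads, which holds for 312 of the 4989 mRNAs.

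Same-numbered Total libraries deviated together, with weak correlations of 0.170, 0.166 and 0.141 between temperatures. The labels do not state a pairing, and the main abundance fit had no replicate block. Alternatives were DESeq2 1.42.0, DESeq2 size factors, other count minimums, coding length, bins of 100 transcripts, centring on the median, edgeR on supernatant against pellet counts, no trend, refitted mixing ratios, monosomes added to polysomes, only the groups compared, a replicate block and each replicate left out. Intervals are SEs from the fits, not the spread of the compared lysates alone. Those of limma use a variance moderated across transcripts over all lysates of the fit, and those of edgeR were derived from the test statistic. No sequence was analysed here.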

Additional observations from a re-analysis of the deposited data

Results flagged for a closer look

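SSB2, a ribosome-bound Hsp70 gene that shares reads with SSB1, had a relative change of −0.14 in the heat experiment, negative in both pairs. It was 0.31 in the spike-in lysates (0.19 and 0.43 in the pairs, adjusted p = 0.026, limma) and 0.053 in the mock lysates (0.00069 and 0.11 in the pairs), positive in both pairs of each. BEM2, a GTPase-activating protein gene, had 0.21 in the heat experiment and −0.078 in the spike-in lysates (−0.00093 and −0.16 in the pairs, adjusted p = 0.407, limma). All lysate pairs of one set moved one way and all of the other set the opposite way, and the difference between the sets was not tested.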

How the results depend on the processing

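The counts of relative changes moved most with the lysates in the fit. They were 318 higher and 305 lower, and 1 and 1 with only the 30°C and 46°C lysates, 920 and 492 when values were centred on the lysate median without length control, and 904 and 652 with edgeR on supernatant against pellet counts. Leaving out a replicate gave 1 to 829 higher and 1 to 859 lower. Of the 623 calls, 609 kept their sign when centred on the median, 612 with edgeR on both fractions and 622 with coding length. The replicate block gave 360 and 345, but same-numbered lysates correlated above 0.1 in only 2 of 3 pairs (0.166, 0.169 and 0.0434), so the block was not taken as a pairing. For log-odds pSup, 0 to 1 mRNAs rose and 4988 to 4989 fell when a replicate was left out, and 0 rose and 4989 fell with the replicate block.

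The difference in median pSup was −0.676 and became −0.572 as the share of all mRNA counts in the supernatant, and −0.684 to −0.668 when a replicate was left out. In Total RNA, 10 to 177 rose and 0 to 9 fell without a replicate, 0 fell with only the 30°C and 46°C libraries, and 29 rose and 4 fell with the replicate block. The spike-in lysates gave 592 to 1221 higher and 490 to 1055 lower without a replicate, and 1067 and 943 with the replicate block. The mock lysates gave 0 to 591 and 0 to 322 without a replicate, and 497 and 327 with the replicate block, which rests on a single pair. Ribosome association gave 934 to 1837 higher and 794 to 1324 lower without a replicate, and 1876 and 1382 with the replicate block. The causes were not tested.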

Other observations

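The mitochondrial RNA RPM1, of mitochondrial RNase P, moved with the mitochondrial mRNAs rather than with its rRNAs, from pSup of 0.745 and 0.788 at 30°C to 0.117 and 0.0856 at 46°C. In the spike-in lysates at 46°C it was at 0.150 and 0.403, so those replicates differed widely. Among small nucleolar RNAs, SNR31 and SNR191 were the most retained of the H/ACA kind, at 0.966 and 0.976 and at 0.915 and 0.928 at 46°C. In the other lysates the H/ACA RNAs were less uniform, with 8 of 16 above 0.5 in both 46°C spike-in lysates (medians of 0.502 and 0.756) and 16 of 16 in both mock lysates (0.683 and 0.703), against 15 of 16 in the heat lysates. The 15S rRNA was at 0.0976 and 0.646 in the spike-in lysates at 46°C. SCR1 was at 0.709 and 0.834 in the spike-in lysates and at 0.813 and 0.789 in the mock lysates, and SNR17A at 0.0880 and 0.226 and at 0.230 and 0.181.

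In the polysome data, the 318 mRNAs with a relative change of pSup called higher had a median log2 change in polysome ratio of 0.07. The 305 called lower had one of −0.09, beside 0.12 over the 4988 mRNAs measured in both. Spearman's rho between the 2 changes was 0.031 across 4988 mRNAs, which are not independent. The 132 cytosolic ribosomal protein mRNAs had a median log2 change of 0.997 in polysome ratio. Most of them were called higher in that ratio and 0 lower, beside 31.1% higher and 23.1% lower of 5724 transcripts. In the relative change of pSup, 7 of the 132 were called in each direction.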
